A study of Arabidopsis thaliana with 12 samples.

Results

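The transcripts of 9 cellulose synthase-like (CSL) genes of *Arabidopsis thaliana*, 6 of the CSLB group (CSLB1 to CSLB6) and 3 of the CSLD group (CSLD2, CSLD3 and CSLD5), were followed in roots and leaves of the *pi4kß1ß2* double mutant and of the wild type (WT). The members were taken by gene identifier, and all 9 were found among the 37336 gene identifiers of the count tables. RNAseq was done on 12 libraries, 3 each of *pi4kß1ß2* roots, WT roots, leaves labelled *pi4kß1ß2* and leaves labelled WT, from untreated seedlings 7 days old grown on agar medium with sucrose. The WT is Columbia (Col-0), and *pi4kß1ß2* is 1 line that carries a T-DNA insertion in each of the 2 genes PI4Kß1 (AT5G64070) and PI4Kß2 (AT5G09350), which encode phosphatidylinositol 4-kinases. Each root library came from pooled RNA of many plants, whereas the study's methods do not describe the leaf libraries.

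CSL proteins are glycosyltransferases of the same family as the cellulose synthases (CESA), and they build polysaccharide backbones of the cell wall. CSLD proteins are known from tip-growing cells and from the cell plate, the new wall laid between daughter cells: CSLD3 (KOJAK) is required for root hairs to elongate, CSLD2 acts with it in root hairs, and CSLD5 acts in dividing cells at the cell plate. The product of the CSLB enzymes is not established, and for CSLB5 the genome annotation notes shorter root hairs of mutants under phosphate deficiency. PI4Kß1 and PI4Kß2 make phosphatidylinositol-4-phosphate at the trans-Golgi network, from which wall material and membrane proteins are secreted.

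The CSLB genes lie in tandem arrays (TAIR10.1 coordinates; the count tables give none). CSLB3 (AT2G32530, chr2:13809019-13813572) and CSLB4 (AT2G32540, chr2:13814543-13818410) are 970 bases apart, CSLB1 (AT2G32610, chr2:13836117-13839640) and CSLB2 (AT2G32620, chr2:13840687-13844425) are 1046 bases apart, and 17706 bases with other genes separate the pairs, all on the plus strand. CSLB5 (AT4G15290, chr4:8721482-8726733) and CSLB6 (AT4G15320, chr4:8742639-8748025) are on the minus strand, 15905 bases apart. CSLD2 (AT5G16910, chr5:5560607-5565660), CSLD3 (AT3G03050, chr3:686981-691911) and CSLD5 (AT1G02730, chr1:594502-598657) stand alone. The coding sequences of CSLB pairs were 66.9% to 88.8% identical (15 pairs, gaps counted as differences). The lowest values were those of pairs with CSLB6, whose longest annotated coding sequence (2487 bases) is longer than those of the other CSLB genes. CSLB5 and CSLB6 were 73.9% identical with gaps counted and 90.0% without, the highest of the CSLB pairs without gaps. With gaps counted, CSLD2 and CSLD3 were 82.1% identical, and a CSLB and a CSLD were at most 43.4% identical.

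Copies this close can share reads, and the authors counted only reads that map to a single gene. Of the windows of 75 bases, the read length, in the CSLB5 transcript, 11.2% had an exact copy elsewhere in the genome, all of them in CSLB6. For CSLB6 the share was 18.2%, for CSLB1 to CSLB4 at most 0.55%, and for the 3 CSLD genes 0. The longest run that CSLB5 and CSLB6 share is shown because a read inside it cannot be given to either gene. It is coding sequence of 248 bases, 247 of them in exon 2 (chr4:8724690-8724936 in CSLB5 and chr4:8747070-8747316 in CSLB6, minus strand) and the last one in exon 3. It is followed by the primers the study used to measure CSLB5 by PCR.
CSLB5 and CSLB6, shared run: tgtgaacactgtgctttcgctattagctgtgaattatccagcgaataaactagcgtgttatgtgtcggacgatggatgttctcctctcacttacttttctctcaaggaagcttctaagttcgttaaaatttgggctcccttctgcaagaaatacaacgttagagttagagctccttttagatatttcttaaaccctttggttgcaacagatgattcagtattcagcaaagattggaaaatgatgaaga
CSLB5 forward primer: cattcaactattgttaaggtggt
CSLB5 reverse primer: ctccagttttgtaatgatgaagg
The forward primer spans the junction of exons 3 and 4 of CSLB5, with 18 bases in exon 3 and 5 in exon 4. The reverse primer lies in exon 4 of CSLB5 (chr4:8724138-8724160), and an exact copy of it lies in exon 4 of CSLB6 (chr4:8746518-8746540). Both primers together matched only the CSLB5 transcript, with a product of 127 bases.

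The depth was 38116716 to 46577151 reads counted on genes per library, and levels are given as CPM, the counts of a gene scaled to the size of its library, after TMM scaling over the 12 libraries (normalized CPM). In roots both kinase transcripts followed the labels: PI4Kß1 had 48.5, 47.3 and 48.5 normalized CPM in *pi4kß1ß2* roots, against 73.4, 79.0 and 71.1 in WT roots, and PI4Kß2 had a log2 fold change of -1.07 ± 0.08 (SE). In leaves they did not, since PI4Kß2 had 11.0, 6.33 and 6.72 normalized CPM in leaves labelled *pi4kß1ß2* and 11.8, 4.68 and 12.1 in leaves labelled WT, so that replicate 1 of the first label and replicate 2 of the second go against their labels. The comparison of the leaf labels is therefore given as labelled and, where that changes it, without these 2 libraries, and the comparisons of the organs without the one of their genotype where that moves a value by over 1.5 times. The organ labels fitted the markers: 10 photosynthesis genes summed to 143 to 515 normalized CPM in the 6 root libraries and to 62877 to 82638 in the 6 leaf libraries, with none of the 10 at 0.

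The CSLB group changed its make-up between the genotypes in roots and between the organs. In *pi4kß1ß2* roots CSLB1 gave 44.3% ± 4.50 of all CSLB counts, CSLB2 26.9% ± 3.62 and CSLB5 24.0% ± 1.97 (mean ± SD, n = 3). In WT roots CSLB5 gave 61.5% ± 3.53, CSLB1 17.4% ± 1.29 and CSLB2 11.6% ± 1.68 (n = 3). Neither the shares of CSLB5 (21.8% to 25.6% against 57.8% to 64.8%) nor those of CSLB1 (40.7% to 49.3% against 16.1% to 18.7%) overlapped between the genotypes. Summed over the group, CSLB transcripts reached 10.8 ± 0.62 normalized CPM in *pi4kß1ß2* roots and 20.8 ± 2.14 in WT roots (SD, n = 3). The shares are parts of the same total, so that a fall of CSLB5 raises the shares of the others. In level CSLB5 fell 4.89-fold and CSLB1 rose 1.33-fold, a rise whose call was lost in several alternatives.

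**Figure D1:**
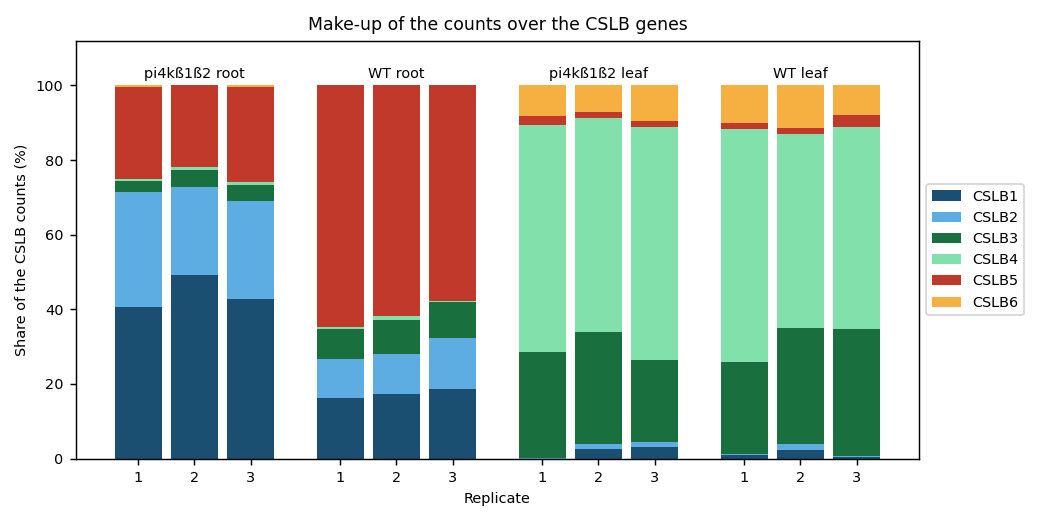
Share of each CSLB gene in the counts over the 6 CSLB genes (vertical axis, %), 1 bar per library, with the replicate number on the horizontal axis. CSLB5 fills 57.8% to 64.8% of the bars of WT roots and 21.8% to 25.6% of those of *pi4kß1ß2* roots, while CSLB3, CSLB4 and CSLB6 fill nearly all of the leaf bars.

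Of the 9 members, 7 had enough counts to be tested between *pi4kß1ß2* and WT roots (1 CPM or more in 3 or more of the 6 libraries), and CSLB4 and CSLB6 did not. By edgeR's quasi-likelihood test, with p-values adjusted after Benjamini and Hochberg over the 19694 genes tested, 1 member was higher in *pi4kß1ß2* roots, where 11.3% of all genes tested were called higher, and 3 were lower, where 15.2% were. The 3 that fell were CSLB5, CSLB3, which passed the filter through the WT libraries alone, and CSLD5, the 1 that rose was CSLB1, and CSLB2, CSLD2 and CSLD3 did not pass the test. Normalized CPM of 4 members did not overlap between the genotypes, as for 44.6% of the genes tested. In bulk roots, fewer cells of a type and less RNA per cell cannot be told apart. The p-values measure the spread between these libraries.

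CSLB5 had 2.57, 2.27 and 2.95 normalized CPM in *pi4kß1ß2* roots, against 12.9, 14.4 and 11.1 in WT roots. Every mutant library was far below every WT library. CSLB5 fell 4.89-fold (log2 fold change -2.29 ± 0.13 (SE), adjusted p = 3.9e-05 by edgeR). Over all alternatives its log2 fold change stayed between -2.40 and -2.20, and each was past the threshold. CSLB6, the gene that shares the run printed above, had 4 counts in *pi4kß1ß2* roots and 0 in WT roots in all, so that uniquely placed reads in roots came almost entirely from CSLB5.

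CSLB3 had 0.294, 0.467 and 0.492 normalized CPM in *pi4kß1ß2* roots (15, 23 and 28 counts), against 1.61, 2.08 and 1.90 in WT roots (74, 107 and 96 counts). The mutant libraries were again all below the WT libraries, and none of the mutant libraries reached 1 CPM, so that a gene let in by the filter at these levels had to differ. CSLB3 fell 4.42-fold (log2 fold change -2.14 ± 0.23 (SE), adjusted p = 4.5e-04 by edgeR). With no filter on low counts, the log2 fold change was again -2.14 (adjusted p = 8.6e-05), and the stricter filter, 1 CPM in 4 libraries, leaves this gene out. The 10 photosynthesis genes, which stand for green tissue, summed to 143, 283 and 179 normalized CPM in *pi4kß1ß2* roots, against 330, 515 and 269 in WT roots, which is 0.260% and 0.534% of the leaf level of the same label. These sums overlapped, and 1 of the 10 genes was called lower. CSLB3 in roots was at 4.80% of its leaf level in *pi4kß1ß2* and at 12.5% in WT, and the part of green tissue in its fall was not tested.

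CSLD5, the cell plate enzyme, had 61.8, 58.0 and 57.2 normalized CPM in *pi4kß1ß2* roots, against 71.9, 72.6 and 71.9 in WT roots. The change was small beside that of CSLB5, but the groups did not overlap. CSLD5 fell 1.22-fold (log2 fold change -0.29 ± 0.04 (SE), adjusted p = 0.0021 by edgeR). This value lay between -0.32 and -0.25 over all alternatives and passed the threshold in each.

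CSLB1 had 4.26, 5.14 and 4.92 normalized CPM in *pi4kß1ß2* roots, against 3.19, 4.03 and 3.60 in WT roots. The lowest mutant library was only slightly above the highest WT library. CSLB1 rose 1.33-fold (log2 fold change 0.41 ± 0.12 (SE), adjusted p = 0.041 by edgeR), and the call depended on the libraries and the tool. It was lost without replicate 1 or 3 of the WT roots (adjusted p = 0.11 and 0.092) and without replicate 2 or 3 of the *pi4kß1ß2* roots (0.13 and 0.12), with DESeq2 (0.054) and in a fit of all 12 libraries (0.69). Its neighbour CSLB2 had 3.22, 2.46 and 3.04 normalized CPM in *pi4kß1ß2* roots, against 2.08, 2.51 and 2.61 in WT roots, with overlapping groups and a log2 fold change of 0.28 ± 0.15 (SE, adjusted p = 0.21 by edgeR).

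The root hair enzymes differed little between the genotypes. CSLD3 had 119, 118 and 117 normalized CPM in *pi4kß1ß2* roots, against 123, 125 and 107 in WT roots. CSLD2 had 97.7, 98.5 and 91.7 normalized CPM in *pi4kß1ß2* roots, against 100.4, 99.9 and 91.1 in WT roots. In both genes the mutant values lay within or close to the range of the WT values. The 95% interval of the log2 fold change was -0.13 to 0.14 for CSLD3 and -0.13 to 0.11 for CSLD2.

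CSLB4 and CSLB6 were nearly silent in roots. CSLB4 had 4 counts in each of the *pi4kß1ß2* root libraries and 4, 12 and 1 in the WT root libraries. CSLB6 had 2, 0 and 2 counts in *pi4kß1ß2* roots and 0 in each library of WT roots. A difference between the genotypes in roots was not detectable at this depth for these genes. CSLB4 in roots was at 0.397% of its leaf level in *pi4kß1ß2* and at 0.408% in WT, beside 0.260% and 0.534% for the photosynthesis genes.

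**Figure D2:**
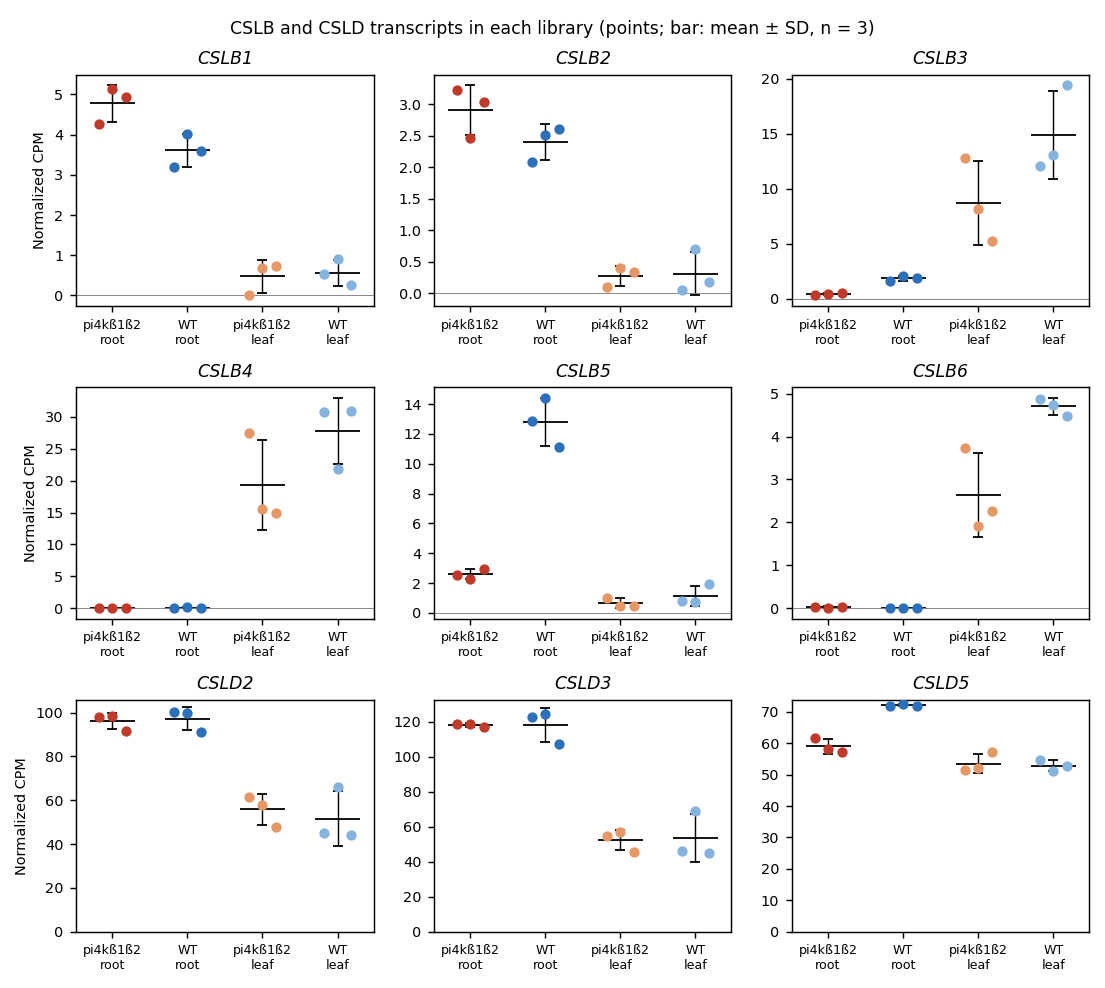
Normalized CPM (vertical axis, linear, a scale of its own for each gene) of the 9 members in each library; points are libraries, and the bars give the mean ± SD of 3 libraries. CSLB5 and CSLB3 lie lower in *pi4kß1ß2* roots than in WT roots in every library, CSLD2 and CSLD3 overlap, and CSLB3, CSLB4 and CSLB6 are highest in leaves.

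Set per kb of exon length, which allows a comparison between genes, the order of the members in roots differed between the genotypes only among the CSLB genes. In *pi4kß1ß2* roots CSLD3 (27.5 ± 0.26 normalized CPM per kb), CSLD2 (21.3 ± 0.83) and CSLD5 (15.0 ± 0.62) came first, followed by CSLB1 (1.90 ± 0.18), CSLB2 (1.18 ± 0.16) and CSLB5 (0.993 ± 0.13; SD, n = 3 each). In WT roots the CSLD genes stood in the same order, at 27.6 ± 2.25, 21.6 ± 1.17 and 18.4 ± 0.098 normalized CPM per kb, and CSLB5 (4.88 ± 0.62) was ahead of CSLB1 (1.43 ± 0.17) and CSLB2 (0.976 ± 0.11). Among neighbours in these orders, only the ranges of CSLB2 and CSLB5 in *pi4kß1ß2* roots overlapped. Within each of these libraries CSLB2 was the higher (1.31, 0.999 and 1.24 against 0.982, 0.869 and 1.13 per kb). CSLB3, CSLB4 and CSLB6 came last in both genotypes.

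The promoter of CSLD5 is shown because this gene was the only member whose 250 bases upstream of the annotated start held the core that activates genes at mitosis, AACGG on either strand, and it held 5 of them. The core was found at least once in 20.6% of the 27443 promoters of this length, and 5 or more times in 11 of them. Of the CSLB promoters, 2 held a match to another motif. That of CSLB2 had 1 auxin response element (TGTCTC, in 10.9% of all promoters), and that of CSLB4 had 1 root hair element (in 0.75%), both strands searched and no matches overlapping. No member had the G-box CACGTG, which 6.49% of the promoters held. Capitals mark the matches.
CSLD5 promoter (chr1:598658-598907, minus strand): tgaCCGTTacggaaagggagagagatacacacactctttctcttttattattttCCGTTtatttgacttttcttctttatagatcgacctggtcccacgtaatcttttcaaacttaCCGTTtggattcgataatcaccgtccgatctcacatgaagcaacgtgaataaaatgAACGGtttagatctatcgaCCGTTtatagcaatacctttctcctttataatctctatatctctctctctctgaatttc
CSLB4 promoter (chr2:13814293-13814542, plus strand): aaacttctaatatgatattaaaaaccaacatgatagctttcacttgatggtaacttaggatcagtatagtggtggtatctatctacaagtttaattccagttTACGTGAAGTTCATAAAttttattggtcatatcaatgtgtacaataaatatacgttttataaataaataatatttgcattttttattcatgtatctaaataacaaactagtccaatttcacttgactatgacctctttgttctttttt
A match is a description of letters and not of a binding site. CSLB4, with a root hair element, was nearly silent in roots, and CSLB3 and CSLB5, which fell, had no match to any of the motifs.

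Related lists were described in the same root comparison, in which 11.3% of all genes tested were called higher and 15.2% lower. All 8 CESA genes tested of 10 were lower in *pi4kß1ß2* roots, with a median log2 fold change of -0.36 beside 0.01 over all genes tested and -0.01 over the 7 members. The CESA genes with the largest change were CESA4 (24.4 ± 0.34 against 42.3 ± 3.14 normalized CPM), CESA7 (19.6 ± 0.10 against 32.2 ± 0.85) and CESA8 (16.9 ± 0.88 against 27.1 ± 1.41; SD, n = 3 each), which make cellulose of the secondary wall. Of 13 other CSL genes tested, 3 rose and 4 fell (median -0.05), among them CSLE1 (log2 fold change 0.51 ± 0.06), CSLC12 (0.51 ± 0.13) and CSLA11 (0.29 ± 0.08) upward and CSLA14 (-0.93 ± 0.08), CSLA2 (-0.39 ± 0.06) and CSLA9 (-0.33 ± 0.06) downward (SE).

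Since CSLD2 and CSLD3 act in root hairs and CSLD5 in dividing cells, genes of both processes were listed beside them. The counts called in these lists stand beside 11.3% of all genes tested called higher and 15.2% called lower. Of 27 root hair genes, all tested, 5 rose and 2 fell (median log2 fold change 0.25). LRX2, a wall protein of root hairs (0.94 ± 0.09), PRP3 (0.66 ± 0.17) and RHS2 (0.51 ± 0.12) rose the most, and the transcription factor RSL2 (-0.47 ± 0.14) and SCN1 (-0.13 ± 0.04) fell (SE). Of 14 genes of cytokinesis, 1 rose and 6 fell (median -0.16). The cytokinesis genes that fell the most were the phragmoplast genes PLE (-0.31 ± 0.05) and POK1 (-0.28 ± 0.08) and the mitotic regulator MYB3R4 (-0.25 ± 0.05), while MYB3R1 rose (0.17 ± 0.04; SE). Of the 10 root markers 3 rose and 6 fell; the iron transporter IRT1 (2.48 ± 0.22), WOX5 of the root tip (0.96 ± 0.17) and PLT1 (0.31 ± 0.06) rose, and TIP2;3 (-1.75 ± 0.08) and the endodermal CASP5 (-1.25 ± 0.08) fell the most (SE). These markers moved with the genotype, and the part of the cell make-up of the roots in the changes of the members was not tested. Of the 10 leaf markers, GAPA alone was called (-0.85 ± 0.22 (SE)).

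**Figure D3:**
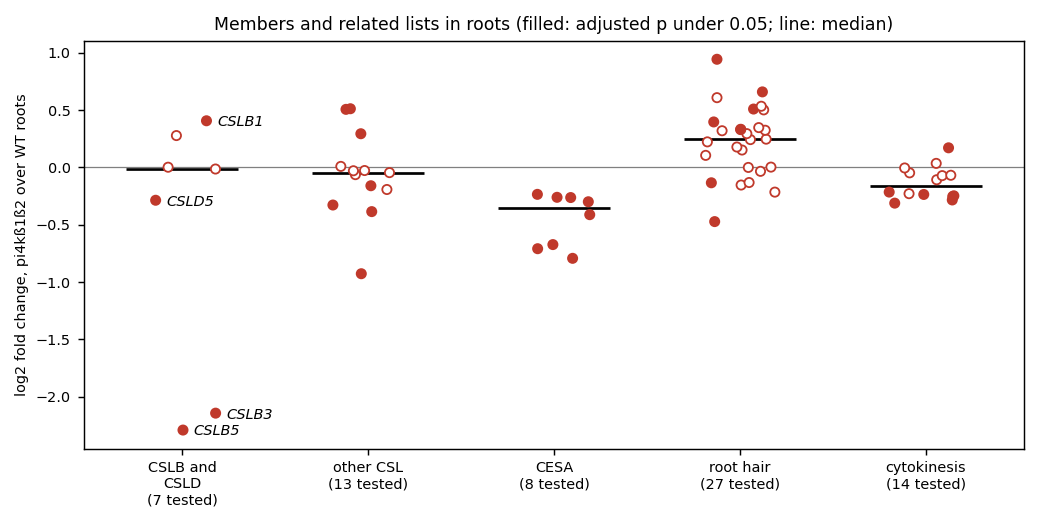
Log2 fold changes of *pi4kß1ß2* over WT roots (vertical axis) for the members and 4 related lists; each point is a gene tested, filled where it was called, and the line is the list's median. CSLB3 and CSLB5 lie at -2.14 and -2.29, below all other genes shown, and all 8 CESA points lie below 0.

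Of the genes tested beside and within the chromosome 2 array and between CSLB5 and CSLB6, none fell as far as CSLB3 or CSLB5. AT2G32520, just before CSLB3, had a log2 fold change of -0.01 ± 0.06 in roots (SE), and AT2G32630, just after CSLB2, of 0.12 ± 0.17. Of the genes between CSLB4 and CSLB1, AT2G32580 fell slightly (-0.18 ± 0.05, adjusted p = 0.025 by edgeR), AT2G32560, EMB2795 and AT2G32600 did not pass the test (-0.04 to 0.15), and AT2G32550 had too few counts (0.227 ± 0.074 against 0.569 ± 0.069 normalized CPM; SD, n = 3). Between CSLB5 and CSLB6, the cytochrome P450 gene CYP702A2 rose (1.44 ± 0.24 (SE), adjusted p = 0.0043 by edgeR), with 3.41 ± 0.57 against 1.26 ± 0.40 normalized CPM (SD, n = 3), and CYP702A3 had too few counts.

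Between leaves labelled *pi4kß1ß2* and leaves labelled WT, 6 members were tested and none was called, where 3.72% of the 19470 genes tested were called higher and 6.76% lower by edgeR; CSLB6 alone had an unadjusted p under 0.05. CSLB1, CSLB2 and CSLB5 had too few counts in leaves. With the 2 libraries whose PI4Kß2 level goes against the label left out, CSLB4 and CSLB6 were called lower in leaves labelled *pi4kß1ß2*. In that setting 2619 of the 19470 genes tested were called higher and 2783 lower, beside 724 and 1317 with all libraries. All 3 members that are mainly in leaves had lower means in leaves labelled *pi4kß1ß2*.

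CSLB4 had 27.4, 15.6 and 15.0 normalized CPM in leaves labelled *pi4kß1ß2*, against 30.7, 21.9 and 30.9 in leaves labelled WT. The groups overlapped, because replicate 1 of the first was high and replicate 2 of the second low, and these are the libraries whose PI4Kß2 level goes against the label. The log2 fold change of CSLB4 was -0.55 ± 0.27 (SE, adjusted p = 0.24 by edgeR) as labelled, -0.88 without replicate 1 of the leaves labelled *pi4kß1ß2* (0.049) and -1.03 without both (8.8e-04).

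CSLB6 had 3.74, 1.91 and 2.26 normalized CPM in leaves labelled *pi4kß1ß2*, against 4.88, 4.73 and 4.49 in leaves labelled WT. These groups did not overlap (37.2% of the genes tested did not). The log2 fold change of CSLB6 was -0.86 ± 0.27 (SE, adjusted p = 0.095 by edgeR), and it passed with DESeq2 (0.036), with edgeR's likelihood ratio test (0.047), without replicate 1 of the leaves labelled *pi4kß1ß2* (0.030) and without both libraries (-1.18, 0.0073).

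CSLB3 had 12.8, 8.15 and 5.23 normalized CPM in leaves labelled *pi4kß1ß2*, against 12.1, 13.1 and 19.4 in leaves labelled WT. The groups overlapped, again through replicate 1 of the mutant label. The log2 fold change of CSLB3 was -0.79 ± 0.35 (SE, adjusted p = 0.20 by edgeR), and -1.25 without both libraries (0.080).

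The CSLD genes had similar levels under both leaf labels. CSLD5 had 51.3, 52.1 and 57.1 normalized CPM in leaves labelled *pi4kß1ß2*, against 54.6, 51.1 and 52.7 in leaves labelled WT, and the 95% interval of its log2 fold change was -0.16 to 0.16. That of CSLD2 was -0.38 to 0.55 and that of CSLD3 -0.52 to 0.42. Replicate 2 of the leaves labelled WT had the highest level of CSLD2 (66.0 normalized CPM), CSLD3 (69.2), CSLB1 (0.907) and CSLB2 (0.709) among the leaf libraries. The same library had the highest sums of the 10 root markers (75.6 normalized CPM, against 28.6 to 55.9 in the other leaf libraries) and of the 27 root hair genes (411, against 216 to 301). The part of root tissue in these levels was not tested.

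In *pi4kß1ß2*, edgeR called 5 of the 9 members higher in roots than in leaves (39.3% of the 20413 genes tested) and 3 lower (39.3%), and CSLD5 did not pass. In WT all 9 members were called, 6 higher in roots (36.3% of the 20291 genes tested) and 3 lower (37.4%). All 6 CSLB genes in *pi4kß1ß2*, and CSLB1, CSLB2, CSLB4 and CSLB6 in WT, reached 1 CPM only in the organ where they were high, so that these counts are a description. The stricter filter left 2 members higher and 0 lower in *pi4kß1ß2* roots, and with no filter the counts were as above. The order of the organs split the CSLB group: CSLB1, CSLB2 and CSLB5 were the root members, and CSLB3, CSLB4 and CSLB6 the leaf members, so that each array holds members of both kinds. All 9 members separated by organ in both genotypes, as 83.3% of the genes tested did in *pi4kß1ß2* and 79.2% in WT.

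CSLB5 had 2.60 ± 0.34 normalized CPM in *pi4kß1ß2* roots and 0.639 ± 0.33 in *pi4kß1ß2* leaves, and 12.8 ± 1.62 in WT roots and 1.15 ± 0.67 in WT leaves (SD, n = 3). Roots were higher by a log2 fold change of 2.04 ± 0.33 in *pi4kß1ß2* and of 3.47 ± 0.38 in WT (SE). The adjusted p in WT was 3.6e-04 by edgeR. In *pi4kß1ß2* CSLB5 passed the filter through the roots alone, so that its value there is a description. With no filter on low counts its log2 fold change in *pi4kß1ß2* was 2.05 (adjusted p = 0.0012 by edgeR). CSLB1 (3.29 ± 0.65 in *pi4kß1ß2* and 2.67 ± 0.40 in WT) and CSLB2 (3.33 ± 0.36 and 2.92 ± 0.66) were likewise higher in roots (SE). Without replicate 2 of the leaves labelled WT, which goes against its label, the log2 fold change of CSLB2 in WT was 4.34, and without replicate 3 that of CSLB5 was 4.06. In leaves these 3 genes stayed at 0 to 67 counts per library.

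CSLB4 had 12 counts over the *pi4kß1ß2* root libraries against 1795 over the leaves of that label, and 17 over the WT root libraries against 2888 over the WT leaves. Scaled by library size, leaves were 250-fold higher in *pi4kß1ß2* (95% interval 143 to 484) and 242-fold higher in WT (151 to 416), with intervals that cover counting error only. Replicate 2 of the WT roots held 12 of the 17 counts of CSLB4, and without it the log2 fold change of roots over leaves in WT was -8.99, beside -7.88 with all libraries. CSLB6 was 102-fold higher in *pi4kß1ß2* leaves than in roots (245 against 4 counts, 95% interval 39.4 to 378). In WT, where no root library had a count of CSLB6, leaves were at least 232-fold higher (489 counts, against the floor of 3 counts over the root libraries). CSLB3, the third leaf member, was lower in roots by a log2 fold change of -4.37 ± 0.42 in *pi4kß1ß2* and of -2.99 ± 0.23 in WT (SE). The adjusted p in WT was 6.1e-05 by edgeR. In *pi4kß1ß2* CSLB3 passed the filter through the leaves alone, so that its value there is a description. With no filter on low counts its log2 fold change in *pi4kß1ß2* was -4.36 (adjusted p = 9.2e-05 by edgeR).

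The CSLD genes were transcribed in both organs. CSLD3 was higher in roots by a log2 fold change of 1.17 ± 0.09 in *pi4kß1ß2* and of 1.14 ± 0.19 in WT, and CSLD2 by 0.78 ± 0.10 and 0.91 ± 0.17 (SE). For CSLD5 the log2 fold change of roots over leaves was 0.14 ± 0.06 in *pi4kß1ß2* (adjusted p = 0.076 by edgeR) and 0.45 ± 0.05 in WT (2.8e-04; SE). In *pi4kß1ß2* it passed without replicate 3 of the leaves labelled *pi4kß1ß2* (0.20, adjusted p = 0.024) and in the fit of all 12 libraries (0.029), and with scaling by library size alone (0.71, adjusted p = 1.7e-04). That scaling moved the median log2 fold change of all genes by about as much as CSLD5, to 0.57 in *pi4kß1ß2* and 0.48 in WT, and CSLD5 to 0.71 and 0.93. It also raised the share of called genes that were higher in roots to 72.8% in *pi4kß1ß2* and 72.5% in WT, beside 50.0% and 49.3%, and changed the direction of no member.

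Per kb, the 3 CSLD genes had the highest means in leaves as in roots, but the ranges of neighbours in the order overlapped, down to CSLB4. In leaves labelled *pi4kß1ß2* CSLD5 (13.6 ± 0.79 normalized CPM per kb), CSLD2 (12.4 ± 1.59), CSLD3 (12.2 ± 1.36) and CSLB4 (7.63 ± 2.77) overlapped each with the next, ahead of CSLB3 (3.33 ± 1.45) and CSLB6 (0.916 ± 0.34; SD, n = 3 each). In leaves labelled WT CSLD5 (13.5 ± 0.44), CSLD3 (12.5 ± 3.18), CSLD2 (11.5 ± 2.77) and CSLB4 (11.0 ± 2.04) overlapped likewise, ahead of CSLB3 (5.67 ± 1.53) and CSLB6 (1.63 ± 0.069). CSLB5, CSLB1 and CSLB2 were last under both labels and overlapped. In leaves labelled *pi4kß1ß2*, CSLB4 overlapped CSLD3 through replicate 1 alone (10.8 per kb, beside 6.16 and 5.92), a library that goes against its label. Within each library of that label CSLB4 was below all 3 CSLD genes. In leaves labelled WT it was above CSLD2 and CSLD3 in replicates 1 and 3 and below them in replicate 2.

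**Figure D4:**
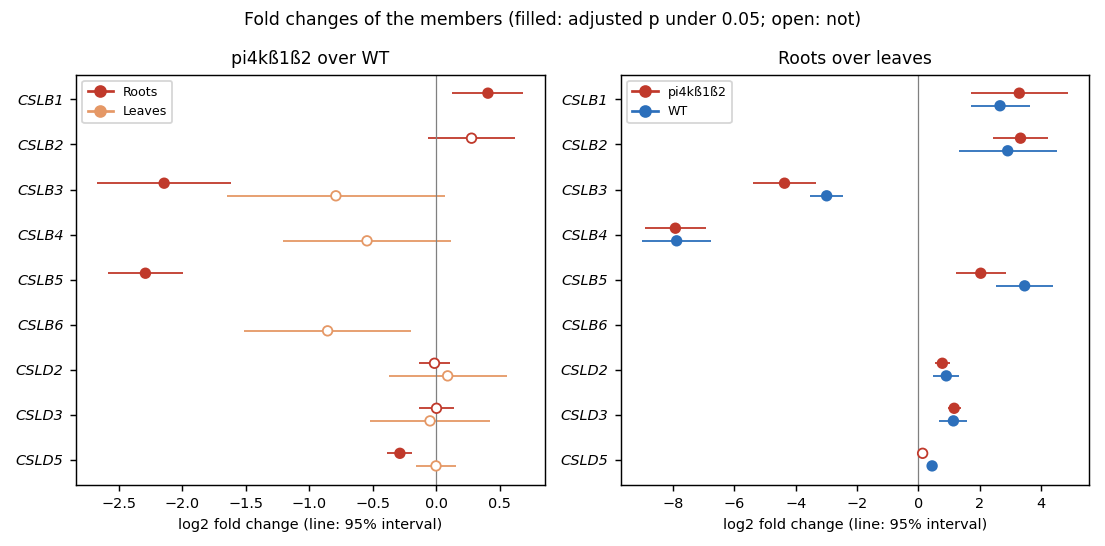
Log2 fold changes (horizontal axes) of *pi4kß1ß2* over WT in roots and leaves (left) and of roots over leaves in each genotype (right); lines are unadjusted 95% intervals, filled points were called, and members too low to test, and CSLB6 in the right panel, are left out. CSLB5 and CSLB3 lie at -2.29 and -2.14 in roots, and the right panel splits the CSLB genes into CSLB1, CSLB2 and CSLB5 above 0 and CSLB3 and CSLB4 below 0.

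Whether the difference between the genotypes was itself different in roots and leaves was tested as an interaction over all 12 libraries, in which 10.3% of the 20765 genes tested were above 0 and 12.1% below. Only CSLD5 passed, with an interaction of -0.31 ± 0.07 (SE, adjusted p = 0.016 by edgeR): its difference was -0.29 in roots and 0.00 in leaves. This call was lost with scaling by library size alone (-0.22, adjusted p = 0.12) and kept in each of the other alternatives. CSLB3 (-1.37 ± 0.48, adjusted p = 0.066) and CSLB5 (-1.43 ± 0.54, adjusted p = 0.086) did not pass (SE), although both did with DESeq2 (0.023 and 0.034), with edgeR's likelihood ratio test (0.027 and 0.038) and without replicate 3 of the leaves labelled WT (0.046 and 0.013), and CSLB3 also without replicate 3 of the leaves labelled *pi4kß1ß2* (0.017). Without the 2 leaf libraries that go against their labels the interaction was -0.91 for CSLB3 (0.13) and -0.70 for CSLB5 (0.33), while that of CSLD5 still passed (-0.31, 0.011).

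Profiles over the 12 libraries were compared as mean-centred log2(normalized CPM + 1), by the root mean square (RMS) difference to each of 20756 genes. All members were left out of these genes, so that no CSLB or CSLD member could be named. The genes most like CSLB5 were AGP13 (RMS difference 0.21), AT1G06120 (0.25) and AT4G22460 (0.27), beside a spread of 1.21 of CSLB5 itself. For CSLD3, with a spread of 0.60, they were 4CL1, TBL4 and AT1G74840 (0.10, 0.10 and 0.11), and for CSLD5, with a spread of 0.18, they were PYD2, VLN2 and AT5G38300 (0.060, 0.065 and 0.067). AGP13 had 7.44 normalized CPM in *pi4kß1ß2* roots against 31.0 in WT roots, and 2.44 against 3.36 in leaves (means of 3).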

How the data were processed

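RNAseq of roots and leaves came from polyA-selected, stranded libraries read from 1 end with 75 bases. Per the study's methods for roots, the authors used Trimmomatic for trimming, sortMeRNA against ribosomal reads, and STAR with TAIR10 for alignment (STAR is also in the submitters' processing notes), and counted reads that map to 1 gene, without multi-hits. The deposited values are raw counts per gene in 3 columns per library; the column for the stranded kit was analysed, with the unstranded column as an alternative. Depth was 38116716 to 46577151 counts per library. The intervals and the floor given for the fold differences of CSLB4 and CSLB6 between the organs cover counting error only. The intervals of log2 fold changes were taken from the SE of edgeR's test, which includes the spread between libraries. The methods call the root replicates biological repetitions, each a pool of RNA from many plants; how far the leaf replicates were grown apart is not given in the sources used here.

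Genes that reached 1 CPM in 3 or more libraries of a comparison were tested with edgeR 4.0.16 (TMM, glmQLFit robust, glmQLFTest) in R 4.3.3, with Benjamini-Hochberg adjustment over all genes tested and a threshold of 0.05, after a test on simulated data. The SE is the absolute log2 fold change divided by the square root of F. The likelihood ratio test of the study, DESeq2 1.42.0, other scalings and filters, a replicate block, a fit of all 12 libraries and libraries left out were alternatives. Named genes were the members, both kinase genes, up to 3 genes per direction of each list by size of change among those called in roots, the genes beside and within the chromosome 2 array and between CSLB5 and CSLB6, and the 3 nearest profiles. Members and lists were chosen with earlier results of these data known. Exon lengths, coordinates and sequences are from RefSeq's TAIR10.1, which matched 37051 of the 37336 identifiers. Same-numbered leaf libraries deviated together (correlations 0.16 to 0.65). The doubted libraries are replicate 2 of the leaves labelled WT and replicate 1 of those labelled *pi4kß1ß2*. They can raise the correlations of replicates 1 and 2 (0.36 and 0.65) by themselves. Replicate 3, which holds neither, was at 0.16. All 6 leaf libraries correlated best with their own number. Whether the numbers pair the leaf libraries was not settled. The main test took them as unpaired, and the replicate block, an alternative, changed no call of a member in leaves.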

Additional observations from a re-analysis of the deposited data

Results flagged for a closer look

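The difference between the genotypes in CSLD5 was not the same in roots and in leaves: the interaction was -0.31 on the log2 scale (SE 0.07, adjusted p = 0.016 by edgeR's quasi-likelihood test over all 12 libraries), and all 3 *pi4kß1ß2* root libraries were below all 3 WT root libraries, whereas the leaf libraries overlapped. Of all genes tested, 10.3% had an interaction above 0 and 12.1% below. The call of CSLD5 was lost with scaling by library size alone (-0.22, adjusted p = 0.12 by edgeR). It was kept without the leaf libraries that go against their labels. No cause was tested.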

How the results depend on the processing

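The calls of CSLB5 and CSLD5 in roots held in every alternative. That of CSLB3, which passed the filter through the WT libraries alone, held with no filter, and the stricter filter leaves the gene out. The count of members higher in *pi4kß1ß2* roots was 1, but 0 with DESeq2 and in the fit of all 12 libraries, and 0 to 1 with 1 library left out. Members lower in leaves labelled *pi4kß1ß2* were 0, but 1 with DESeq2 and with the likelihood ratio test, 2 without the libraries that go against their labels, and 0 to 2 with 1 library left out. The stricter filter, which needs counts in both organs, gave 2 members higher and 0 lower in *pi4kß1ß2* roots than leaves, and 1 lower in WT roots than leaves. Members higher in *pi4kß1ß2* roots than leaves were 5 to 6 with 1 library left out. In the interaction, members above 0 were 1 with DESeq2, with the likelihood ratio test and without the doubted libraries (CSLB6, 4 root counts in all), and 0 to 1 with 1 library left out; members below 0 were 3 with DESeq2 and with the likelihood ratio test, 0 by library size alone, and 1 to 3 with 1 library left out.

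Counts over all genes moved by over 1.5 times in the fit of all 12 libraries (692 higher and 1753 lower in *pi4kß1ß2* roots, beside 2233 and 3000) and, in leaves (724 higher and 1317 lower as labelled), with DESeq2 (1690 and 2052), in the fit of all 12 libraries (2461 and 2845), without the doubted libraries (2619 and 2783) and with 1 library left out (4 to 907 and 10 to 1357). Of the calls in roots 42.7% were higher in *pi4kß1ß2*, beside 54.7% by library size alone and 28.3% in the fit of all 12 libraries. Library size alone gave 12634 genes higher and 4727 lower in *pi4kß1ß2* roots than leaves (8017 and 8026 with TMM) and 12116 and 4598 in WT (7363 and 7585). The interaction had 1284 to 2472 genes above 0 with 1 library left out (2135 with all) and 3890 below 0 without the doubted libraries (2507 with all).

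The replicate block changed no call of a member; it gave 2013 genes higher and 2854 lower in roots. Same-numbered libraries correlated at -0.048 to 0.59 in roots, -0.031 to 0.41 between the organs in *pi4kß1ß2* and -0.031 to 0.42 in WT. Of 6 libraries each, 3, 3 and 2 correlated best with their own number. The highest correlation was that of replicate 3 in each of these comparisons, and whether the numbers pair these libraries was not tested. Depth limits CSLB4 and CSLB6 in roots and CSLB1, CSLB2 and CSLB5 in leaves, and 3 libraries a group limit small changes such as that of CSLB1.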
